A study of Mus musculus with 3 samples.

Results

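The 5 genes described here govern the formation of osteoclasts, the cells that resorb calcified cartilage and bone: *Tnfsf11* (RANKL), *Tnfrsf11b* (OPG), *Tnfrsf11a* (RANK), *Csf1* (M-CSF), and *Il34*. They were matched by symbol among 32285 genes in single-cell libraries of the mouse fracture callus, and all 5 were found. C57BL/6 mice received a femoral fracture held by an intramedullary pin, with "none" as the treatment in the labels and anesthesia and pain relief around surgery in the methods, and callus cells were harvested at day 7, day 10, or day 14, with 1 library per day. Callus cleaned of marrow was digested with collagenase, and live cells (7-AAD negative) without the lineage markers CD45, CD31, and TER119 were sorted for droplet sequencing. No unfractured group was analysed here, and the age and number of mice behind each library are not given in the sources used here. The study included males and females, and the sex of the mice in each library was not examined here. With 1 library per day, day and library cannot be told apart and no test between days was possible. No test between cell groups was run. Every interval below is an exact 95% interval that covers counting error alone, not the spread between cells or mice.

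RANKL is a membrane-bound and shed cytokine that binds RANK on osteoclast precursors of the macrophage lineage and drives their fusion and survival. OPG is a soluble decoy receptor that captures RANKL, so the balance of both is commonly read from their ratio. M-CSF and IL-34 are alternative ligands of the receptor CSF1R (*Csf1r*), which osteoclast precursors need for survival and growth. In the healing callus, osteoclasts and related cells remove the calcified cartilage laid down by hypertrophic chondrocytes before it is replaced with bone.

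Cells were placed in groups by marker genes rather than by clusters. Among cells with 500 to 5000 genes, at most 10% mitochondrial UMIs, at most 5% hemoglobin UMIs, and 0 UMIs of *Ptprc* (the gene of CD45), a cell counted as high for a marker when it held at least 3 of its UMIs and its level reached the mean of the top 1% of cells divided by 10. The 6 markers were *Aspn* (fibroblastic osteoprogenitor-like cells), *Cnmd* (chondrocyte-like), *Col10a1* (hypertrophic chondrocyte-like), *Ifitm5* (mature osteoblast-like), *R3hdml* (an osteochondral set), and *Rgs5* (pericyte-like). Cells high for several markers, 740 at day 10 and 890 at day 14, went to the marker they exceeded most. At day 10 this gave 1493 *Aspn*-high, 3103 *Cnmd*-high, 435 *Col10a1*-high, 140 *Ifitm5*-high, 176 *R3hdml*-high, and 72 *Rgs5*-high cells. At day 14 the same groups held 3447, 2106, 1104, 405, 306, and 197 cells. Cells high for none of the markers numbered 1168 at day 10 and 2115 at day 14. The other markers listed for each group were more than 2-fold higher there than in the remaining grouped cells on both days, except *Sox9* in *Cnmd*-high cells at day 14 (1.82-fold). For example, *Ptn* was 51.2-fold higher in *Aspn*-high cells, *Mmp13* 17.0-fold higher in *Col10a1*-high cells, and *Bglap* 197-fold higher in *Ifitm5*-high cells at day 10. The edge of a group is a threshold on a continuous level: at day 14, 186 of the *Col10a1*-high cells lay within 1.5-fold above the cut and 162 ungrouped cells lay within 1.5-fold below it.

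The library labelled day 7 stood apart. Of its 7017 cells within the limits, 447 (6.37%) had no *Ptprc* UMI, against 99.9% at day 10 and 98.2% at day 14, which goes against a CD45-negative sort. It gave 100 grouped cells, of which 65 were *Cnmd*-high, and the other groups held 0 to 17 cells, for which UMI counts alone are given. Its 347 cells high for none carried a summed neutrophil marker level of 36423 counts per 1000000 UMIs (CPM) and a median of 3203 UMIs. For these reasons the results rest on day 10 and day 14, and the cuts were set on those days. The library labelled day 7 held 113127788 UMIs in all, that of day 10 held 144103160, and that of day 14 held 195661880. The median *Ptprc*-negative cell held 17372 UMIs at day 10 and 15838 at day 14. The libraries at days 10 and 14 shared 35 cell barcodes, of which 13 were grouped on both days.

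By the gene models used here (GENCODE M21, GRCm38), *Tnfsf11* spans chr14:78277445-78308043 on the minus strand and *Csf1* chr3:107741048-107760469 on the minus strand. *Tnfrsf11b* lies at chr15:54250619-54278484 on the minus strand, *Tnfrsf11a* at chr1:105780718-105847981 on the plus strand, and *Il34* at chr8:110741829-110805924 on the minus strand. *Csf1* has 7 transcripts, 6 of them coding, and counts at the 3′ end do not separate the forms that encode secreted and membrane M-CSF, nor membrane from shed RANKL. *Il34* is overlapped on the opposite strand by *Gm15894* and *Gm15895*, and the other 4 genes are overlapped by none. Since *Tnfsf11* and *Csf1* shared their highest group (below), the 250 bases before the start of each are shown, from RefSeq on GRCm38.p6, as read on the strand of the gene. They cover chr14:78308044-78308293 for *Tnfsf11* and chr3:107760470-107760719 for *Csf1*, and capitals mark a match to a searched motif.
Tnfsf11 promoter: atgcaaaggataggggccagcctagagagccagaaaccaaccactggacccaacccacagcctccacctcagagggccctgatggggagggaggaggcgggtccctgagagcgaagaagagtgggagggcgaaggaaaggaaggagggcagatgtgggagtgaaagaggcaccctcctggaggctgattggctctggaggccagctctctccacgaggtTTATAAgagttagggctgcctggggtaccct
Csf1 promoter: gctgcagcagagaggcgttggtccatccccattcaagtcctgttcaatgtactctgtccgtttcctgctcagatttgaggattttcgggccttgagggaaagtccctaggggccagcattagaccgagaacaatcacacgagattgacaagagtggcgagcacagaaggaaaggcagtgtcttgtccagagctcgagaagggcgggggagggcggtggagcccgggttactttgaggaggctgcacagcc

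Both strands were searched for TATAA (the TATA box), TGTGGT (bound by RUNX factors), TGANTCA (AP-1), and TGACG (the core of the cyclic AMP response element). The *Tnfsf11* window held TTATAA, 31 to 26 bases before the start, which is a match to TATAA on each strand with the matches overlapping. The *Csf1* window held none of the 4 motifs, and its GC content was 56.4% against 60.4% for *Tnfsf11*. Of 32851 RefSeq promoter windows of the same length, 22.8% held TATAA, 14.0% TGTGGT, 6.75% TGANTCA, and 17.8% TGACG. A match is a string of letters and not a mapped site. *Tnfrsf11b* and *Il34* are named without a promoter sequence.

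*Tnfsf11*, the ligand, was highest in *Col10a1*-high cells on both days. At day 10 its level there was 83.4 CPM (76.9 to 90.3; 612 UMIs in 435 cells), and at day 14 it was 56.9 CPM (53.5 to 60.4; 1080 UMIs in 1104 cells). Cells high for none of the markers followed with 59.8 CPM (day 10) and 41.7 CPM (day 14). *R3hdml*-high cells stood at 46.1 and 37.6 CPM, and *Aspn*-high cells at 25.6 and 19.6 CPM. The gene was low in *Ifitm5*-high cells, with 8.66 CPM (22 UMIs) at day 10 and 3.37 CPM (21 UMIs) at day 14. *Cnmd*-high cells had 2.86 CPM (day 10) and 2.88 CPM (day 14), and *Rgs5*-high cells had 2.12 CPM (2 UMIs) and 8.27 CPM (17 UMIs). The *Col10a1*-high cells, which carry markers of hypertrophic cartilage, thus held the most *Tnfsf11* per UMI, and the *Cnmd*-high cells were near the bottom of the order. Neighbours in the order that did not differ beyond counting error were *Cnmd*-high and *Rgs5*-high cells at day 10, *Cnmd*-high and *Ifitm5*-high cells at day 14, and, at day 14, *R3hdml*-high cells and cells high for none.

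*Tnfrsf11b*, the decoy receptor, was spread over more groups and had another order. *R3hdml*-high cells led with 115 CPM (104 to 127) at day 10 and 79.0 CPM (71.9 to 86.6) at day 14. *Ifitm5*-high cells, in which the ligand was low, had 83.0 CPM (211 UMIs) and 68.1 CPM (424 UMIs). *Col10a1*-high cells had 57.9 and 62.7 CPM, and *Cnmd*-high cells had 46.2 and 39.1 CPM. The cells without a high marker had 96.1 CPM (day 10) and 51.2 CPM (day 14). The lowest groups were *Aspn*-high cells, with 24.4 and 15.3 CPM, and *Rgs5*-high cells, with 3 UMIs at day 10 and 4 UMIs at day 14. The *Col10a1*-high and *Ifitm5*-high levels at day 14 were within counting error of each other (ratio 0.921, 0.824 to 1.03).

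*Csf1*, the growth and survival factor, had the same leading group as the ligand. In *Col10a1*-high cells it was at 93.5 CPM (86.6 to 101) at day 10 and 61.1 CPM (57.6 to 64.7) at day 14. The cells without a high marker had 81.8 and 60.5 CPM, and the latter was within counting error of the *Col10a1*-high level. *Aspn*-high cells had 39.3 and 24.6 CPM, *R3hdml*-high cells 32.4 and 34.3 CPM, and *Ifitm5*-high cells 22.8 and 14.6 CPM. *Cnmd*-high cells were lowest, with 7.74 and 7.90 CPM. Single cells carried much of the count in the small groups. In *Rgs5*-high cells at day 10 the level was 75.3 CPM, but 1 cell held 28 of the 71 UMIs (39.4%), and without it the level was 46.7 CPM. With that cell the *Rgs5*-high and *Col10a1*-high levels of day 10 were within counting error of each other. In *R3hdml*-high cells at day 10, 1 cell held 23.7% of the *Csf1* UMIs, and the level without it was 25.0 CPM.

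*Il34*, the other CSF1R ligand, was highest in the *Rgs5*-high cells. Its level there was 57.3 CPM (43.0 to 74.7; 54 UMIs in 32 of 72 cells) at day 10 and 83.6 CPM (71.6 to 97.1; 172 UMIs in 90 of 197 cells) at day 14. In every other group of days 10 and 14, cells high for none included, it was at 3.43 CPM or less. *Ifitm5*-high cells had 0 UMIs of *Il34* on both days. At day 14 the other grouped cells had 3.37 CPM, which is 7.00-fold above a floor of 3 UMIs for the group (0.482 CPM). By the exact interval the group was at least 5.66-fold lower than the others. At day 10 the floor of 1.18 CPM lay close to the 1.52 CPM of the others, so that no fold is given. Pericyte-like cells made up 2.04% of the *Ptprc*-negative cells at day 14 and held 37.1% of their *Il34* UMIs.

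*Tnfrsf11a*, the receptor, was barely present in the sorted cells. The grouped cells held 13 of its UMIs at day 10 and 24 at day 14, or 0.135 and 0.193 CPM. *Aspn*-high cells accounted for 8 of these at day 10 and 14 at day 14. In the library labelled day 7, cells with *Ptprc* UMIs held 23 *Tnfrsf11a* UMIs (0.457 CPM, 0.290 to 0.686), in 21 of 6570 cells, and its 447 *Ptprc*-negative cells held 0, where 3 UMIs would equal 0.617 CPM. At day 14 the 173 cells with *Ptprc* UMIs held 6 *Tnfrsf11a* UMIs in 2 cells (2.84 CPM, 1.04 to 6.19), beside 0.203 CPM in the *Ptprc*-negative cells. *Csf1r*, the shared receptor of M-CSF and IL-34, was at 35.6 CPM in the day 7 cells with *Ptprc* UMIs and at 5.14 CPM in the *Ptprc*-negative cells of that library. At day 14 it was at 10.4 CPM and 0.918 CPM in these sets, and in the *Ptprc*-negative cells of day 10 it was at 0.810 CPM.

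**Figure D1:**
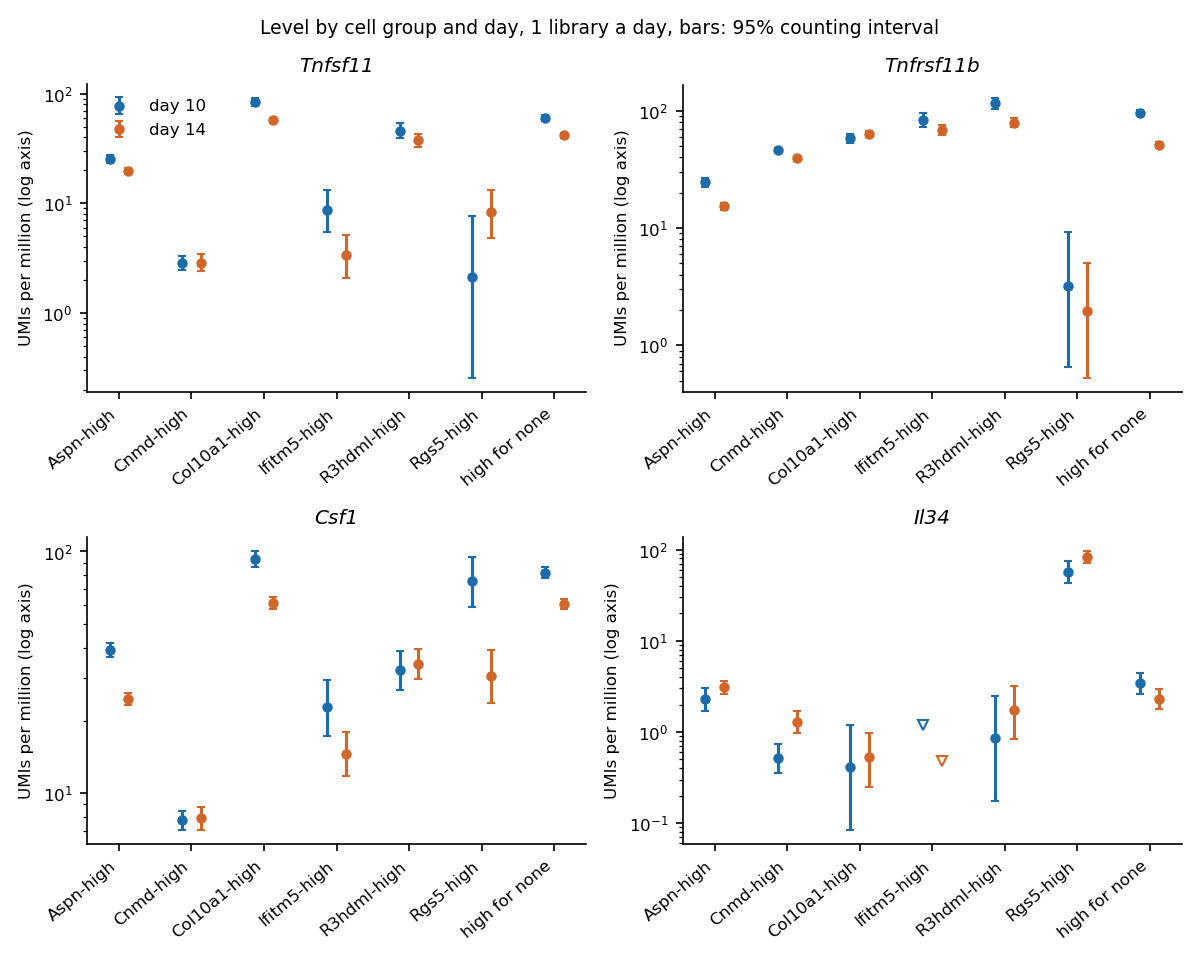
Levels of *Tnfsf11*, *Tnfrsf11b*, *Csf1*, and *Il34* in CPM of summed UMIs (log axis) by cell group at day 10 and day 14, with exact 95% Poisson intervals as bars and open triangles at the level of 3 UMIs where a group held 0. *Tnfsf11* and *Csf1* were highest in *Col10a1*-high cells (83.4 and 93.5 CPM at day 10), *Tnfrsf11b* in *R3hdml*-high cells (115 CPM at day 10), and *Il34* in *Rgs5*-high cells (83.6 CPM at day 14).

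Osteoclast markers were checked in the same cells. Of 12 markers, 2 to 8 were at 0 UMIs in each grouped set of days 10 and 14. *Calcr*, the calcitonin receptor gene of mature osteoclasts, was at 0 in all of them, and *Dcstamp*, *Ocstamp*, *Siglec15*, *Oscar*, *Atp6v0d2*, and *Tnfrsf11a* were at 0.866 CPM or less. The other 5 were present, except *Mmp9* in *Rgs5*-high cells at day 10 (0 UMIs). *Ctsk*, a cathepsin gene, was at 519 and 622 CPM in *Aspn*-high cells, and *Acp5* at 23.5 and 25.1 CPM. The study also used *Ctsk* as a marker of an osteoprogenitor cluster of the callus. *Mmp9*, a gelatinase gene, was at 132 and 74.1 CPM in *Col10a1*-high cells and at 157 and 194 CPM in cells high for none. *Itgb3* was at 51.9 and 42.8 CPM in *Col10a1*-high cells, and *Nfatc1* lay between 18.0 and 105 CPM in the groups. The sum of all 12 ranged from 206 to 700 CPM over the grouped sets, with the 700 CPM in *Aspn*-high cells at day 14. Its part in the members' levels was not tested. Macrophage markers summed to 3.18 to 19.9 CPM in the grouped sets of both days and to 53.1 CPM in the cells high for none at day 14. Neutrophil markers summed to 0.393 to 221 CPM in the grouped sets and to 1373 CPM in the cells high for none at day 14, and their part in that set's values was not tested.

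At day 7 the 65 *Cnmd*-high cells had 9.16 CPM of *Tnfsf11* (12 UMIs), 59.5 CPM of *Tnfrsf11b* (47.0 to 74.3; 78 UMIs), and 2.29 CPM of *Csf1* (3 UMIs). The decoy receptor was thus the leading member in these chondrocyte-like cells on all 3 days. The 17 *Aspn*-high cells held 14 UMIs of *Tnfsf11*, 9 of *Tnfrsf11b*, and 20 of *Csf1*. Cells high for none at day 7 had 244 CPM of *Tnfrsf11b*, 55.3 CPM of *Tnfsf11*, and 47.1 CPM of *Csf1*, in the set rich in neutrophil RNA described above.

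The ratio of *Tnfsf11* to *Tnfrsf11b* UMIs ran over more than an order of magnitude between groups. It was 1.44 (1.27 to 1.63) in *Col10a1*-high cells at day 10, from 612 against 425 UMIs, and 1.05 (0.930 to 1.18) in *Aspn*-high cells. *R3hdml*-high cells had 0.401 (0.332 to 0.482), *Ifitm5*-high cells 0.104 (0.0640 to 0.162), and *Cnmd*-high cells 0.0620 (0.0527 to 0.0724). At day 14, leaving aside *Rgs5*-high cells, *Aspn*-high cells had the highest ratio with 1.28 (1.16 to 1.41), followed by *Col10a1*-high cells with 0.907 (0.834 to 0.985). *R3hdml*-high cells had 0.476 (0.403 to 0.561), or 0.771 with each cell thinned to 5000 UMIs. *Cnmd*-high cells had 0.0739 (0.0610 to 0.0888), and *Ifitm5*-high cells 0.0495 (0.0303 to 0.0767). The *Rgs5*-high ratio rested on 2 against 3 UMIs at day 10 and on 17 against 4 at day 14 (4.25, 1.39 to 17.4), and over 11 other settings the latter lay between 1.62 and 11. Cells high for none had 0.622 (0.575 to 0.673) at day 10 and 0.814 (0.753 to 0.879) at day 14. The 2 genes are counted at their own 3′ ends, so the ratio orders groups and does not give molecules of protein.

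The levels behind the ratios differed between groups. *Aspn*-high cells reached a ratio near 1 with both genes low, at 25.6 and 24.4 CPM at day 10, whereas *Col10a1*-high cells had 83.4 and 57.9 CPM. At the other end, *Ifitm5*-high and *Cnmd*-high cells had low ratios, with the ligand at 8.66 CPM or less beside 39.1 CPM or more of the decoy receptor. At day 7 the *Cnmd*-high ratio was 0.154 (0.0762 to 0.284), above that of days 10 and 14 in value, with an interval that meets the day 14 interval and not that of day 10. However, its 12 *Tnfsf11* UMIs lay in 4 of 65 cells, a spread that the interval does not cover.

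**Figure D2:**
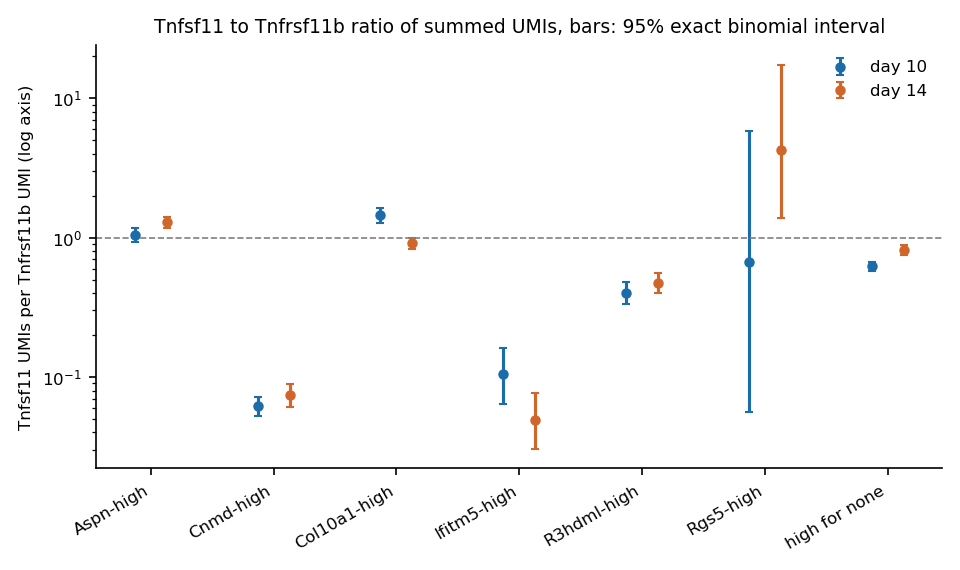
Ratio of summed *Tnfsf11* to *Tnfrsf11b* UMIs (log axis) by cell group and day, with exact 95% intervals; the line marks equal UMIs of both genes. *Col10a1*-high cells passed from 1.44 at day 10 to 0.907 at day 14 and *Aspn*-high cells from 1.05 to 1.28, while *Cnmd*-high and *Ifitm5*-high cells stayed at or below 0.104 on both days.

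Weighed by cells, the ligand came disproportionately from *Col10a1*-high cells. They were 6.60% of the *Ptprc*-negative cells at day 10 and held 23.8% of their *Tnfsf11* UMIs, and at day 14 they were 11.4% and held 30.1%. *Cnmd*-high cells were 47.1% of the cells at day 10 and held 6.60% of the *Tnfsf11* UMIs but 45.8% of the *Tnfrsf11b* UMIs. At day 14 they were 21.8% of the cells, with 3.43% and 28.1% of these UMIs. *Aspn*-high cells, 35.6% of the cells at day 14, held 26.4% of the *Tnfsf11*, 12.4% of the *Tnfrsf11b*, and 25.0% of the *Csf1* UMIs. Those high for none of the markers held 39.9% of the *Tnfsf11* UMIs at day 10 and 33.0% at day 14. They were 17.7% and 21.8% of the cells, so their part was also above their share. *Mmp13* was at 2283 CPM in them at day 10, against 735 CPM in the grouped cells. At day 14 these levels were 3166 and 1218 CPM. Over all *Ptprc*-negative cells the *Tnfsf11* to *Tnfrsf11b* ratio was 0.430 (0.410 to 0.450) at day 10 and 0.605 (0.580 to 0.631) at day 14, which mixes levels within groups with the sizes of the groups in each sort.

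**Figure D3:**
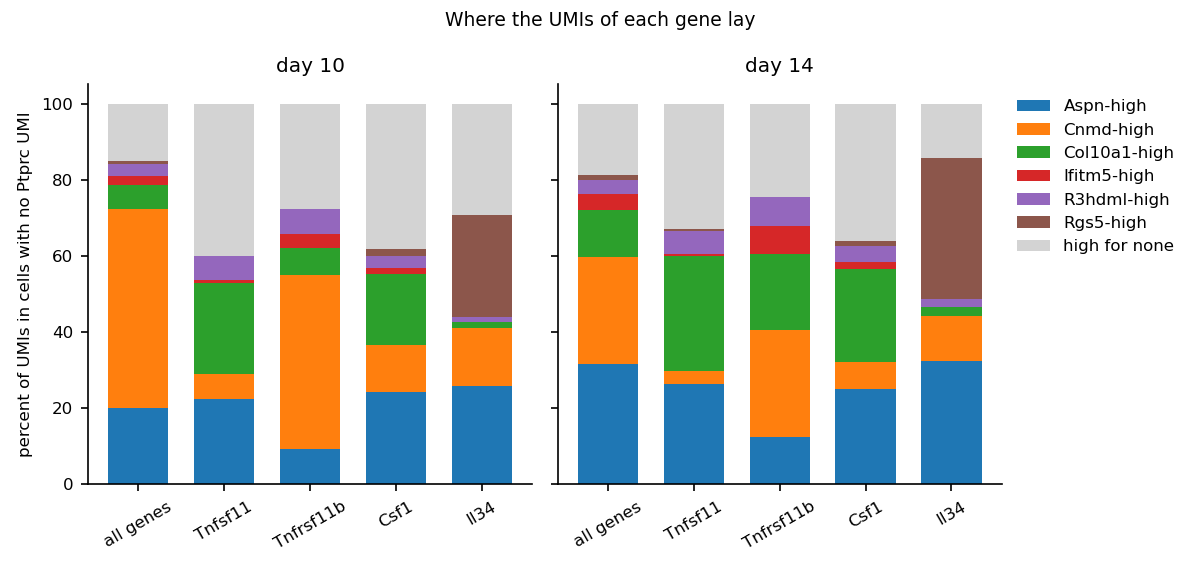
Share (percent) of the UMIs of all genes, and of the *Tnfsf11*, *Tnfrsf11b*, *Csf1*, and *Il34* UMIs, of *Ptprc*-negative cells that fell in each cell group at day 10 and day 14. *Col10a1*-high cells held 23.8% of *Tnfsf11* UMIs at day 10 with 6.46% of all UMIs, and *Rgs5*-high cells held 37.1% of *Il34* UMIs at day 14 with 1.35% of all UMIs.

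Each group was then set against the remaining grouped cells of its day, with cells high for none left out and 2-fold as the size called. *Col10a1*-high cells had 7.95-fold more *Tnfsf11* (7.17 to 8.81) and 5.23-fold more *Csf1* (4.77 to 5.72) at day 10, and 4.51-fold (4.16 to 4.89) and 3.42-fold (3.17 to 3.68) more at day 14. *Tnfrsf11b* was 1.32-fold higher at day 10 and 2.00-fold higher (1.87 to 2.14) at day 14, the latter at the threshold and 1.95-fold without 1 cell. *Il34* was 3.85-fold lower at day 10, on 3 UMIs (1.29 to 18.9), and 7.00-fold lower at day 14. Of the 4 genes with at least 20 UMIs in the contrast at day 10, 2 were past 2-fold higher and 1 lower, and of 5 at day 14, 3 were higher and 2 lower, 1 of them *Tnfrsf11a* with 1 UMI. Over all genes with at least 20 UMIs, 28.5% were past 2-fold in this contrast at day 10 and 28.4% at day 14.

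*Cnmd*-high cells had 13.0-fold less *Tnfsf11* (11.1 to 15.4), 6.36-fold less *Csf1*, and 5.81-fold less *Il34* than the other grouped cells at day 10. At day 14 these differences were 9.72-fold, 4.20-fold, and 3.26-fold. *Tnfrsf11b* alone among them was close to the other groups, at 1.07-fold (1.01 to 1.14) and 1.13-fold (1.06 to 1.20). The members lower by more than 2-fold were 3 of 4 at day 10 and 4 of 5 at day 14, with 0 higher, against 21.8% of all genes past 2-fold at day 10 and 21.8% at day 14. The fourth at day 14 was *Tnfrsf11a*, on 1 UMI.

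*Ifitm5*-high cells combined more decoy receptor with less ligand. *Tnfrsf11b* was 1.89-fold (1.64 to 2.17) and 1.98-fold (1.79 to 2.19) higher at days 10 and 14, just under the 2-fold size called. *Tnfsf11* was 1.88-fold lower (1.23 to 3.00) at day 10, or 2.55-fold without the cell of 6 UMIs, and 6.00-fold lower (3.92 to 9.72) at day 14, when *Csf1* was 1.71-fold lower. Of the 4 members with enough UMIs at day 10, 0 were past 2-fold once *Il34*, at 0 UMIs with a floor 1.29-fold under the others, was not counted. At day 14, 3 of 5 were, among them *Il34* by its floor and *Tnfrsf11a* with 3 UMIs (1.81-fold without 1 cell). Of all genes, 31% were past 2-fold at day 10 and 28.9% at day 14, and these shares, like those of the other contrasts and the counts over gene lists, include genes at 0 UMIs in a group.

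*R3hdml*-high cells were high for both ligand and decoy. *Tnfsf11* was 3.09-fold (2.61 to 3.64) and 2.03-fold (1.76 to 2.34; 1.88-fold without 1 cell) higher, and *Tnfrsf11b* 2.71-fold (2.44 to 3.00) and 2.32-fold (2.10 to 2.56) higher, at days 10 and 14. These are 2 of 4 members past 2-fold at day 10 and, with *Tnfrsf11a* on 5 UMIs, 3 of 5 at day 14, and 19.1% and 17.5% of all genes were past 2-fold. *Csf1* was 1.39-fold and 1.43-fold higher, but this turned to 0.511 and 0.938 of the other grouped cells when the cells high for more than 1 marker were left out.

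*Aspn*-high cells had less of the decoy receptor on both days. *Tnfrsf11b* was 2.10-fold lower (1.92 to 2.30) at day 10 and 3.24-fold lower (2.99 to 3.51) at day 14. *Tnfsf11* was 1.95-fold and *Csf1* 2.09-fold higher at day 10, whereas at day 14 they were at 1.02-fold and 1.01-fold of the others. Past 2-fold were 2 of 4 members at day 10 and 2 of 5 at day 14, of which *Tnfrsf11a* rested on 14 UMIs and was 1.88-fold without 1 cell, and 25% and 24.9% of all genes were.

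*Rgs5*-high cells had 61.4-fold more *Il34* (42.9 to 87.0) at day 10 and 45.3-fold more (37.0 to 55.6) at day 14. *Csf1* was 3.26-fold higher at day 10, or 2.02-fold without the cell of 28 UMIs, and 1.26-fold (0.963 to 1.61) at day 14. *Tnfrsf11b* was 14.3-fold lower at day 10, on 3 UMIs (4.88 to 69.3), and 18.9-fold lower (7.36 to 69.2) at day 14. *Tnfsf11* was 7.63-fold lower at day 10, on 2 UMIs of 1 cell (2.11 to 63.1), and 2.37-fold lower (1.48 to 4.07) at day 14. All 4 members with enough UMIs at day 10 and 3 of 5 at day 14 were past 2-fold, beside 43.6% and 38.3% of all genes in these small groups. *Tnfrsf11a*, at 0 UMIs at day 14, was not counted, since its floor (1.46 CPM) lay above the 0.197 CPM of the others.

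Within *Col10a1*-high cells, the 3 factors separated along the level of *Mmp13*, the collagenase of late hypertrophic chondrocytes. The split of the group into 3 equal parts by *Mmp13* was chosen after the data had been seen, and *Mmp13* is among the markers listed for this group. At day 10 *Tnfsf11* was at 7.04 CPM (4.17 to 11.1) in the part with the lowest *Mmp13*, 60.9 CPM (51.4 to 71.7) in the middle part, and 187 CPM (170 to 205) in the highest part. *Csf1* took the values 4.70, 81.5, and 199.85 CPM. *Tnfrsf11b* ran the other way at the top, with 65.7, 87.4, and 20.4 CPM. The ratio of ligand to decoy was 0.107 (0.0620 to 0.175), 0.697 (0.560 to 0.866), and 9.16 (6.81 to 12.6).

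Day 14 had the same order with a narrower range. *Tnfsf11* was at 6.25, 36.5, and 129.6 CPM from the lowest to the highest part, and *Csf1* at 10.1, 51.8, and 124 CPM. *Tnfrsf11b* was at 69.9, 70.9, and 47.5 CPM, and the ratio was 0.0894 (0.0636 to 0.123), 0.514 (0.434 to 0.607), and 2.73 (2.39 to 3.13). The parts held 145 cells each at day 10 and 368 at day 14, and their median depth lay between 16336 and 18103 UMIs. Over 11 other settings the ratio in the highest part stayed between 6.15 and 10.4 at day 10 and between 2.31 and 3.24 at day 14. In the lowest part it stayed between 0.0698 and 0.232 and between 0.0670 and 0.108.

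Between the highest and lowest parts, *Tnfsf11* differed 26.5-fold (16.6 to 45.2) at day 10 and 20.8-fold (15.2 to 29.0) at day 14. *Csf1* differed 42.6-fold (24.1 to 82.9) and 12.2-fold (9.55 to 15.9), and *Tnfrsf11b* was 3.22-fold (2.33 to 4.53) and 1.47-fold (1.27 to 1.71) lower in the highest part. Counted in cells thinned to 5000 UMIs, *Tnfsf11* was detected in 3.76%, 17.1%, and 38.8% of the cells at day 10 and in 1.99%, 10.3%, and 30.3% at day 14. Without thinning these shares were 5.52%, 30.3%, and 63.4% at day 10 and 5.43%, 19.3%, and 46.5% at day 14. The share of cells with a UMI thus had the same order as the level.

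**Figure D4:**
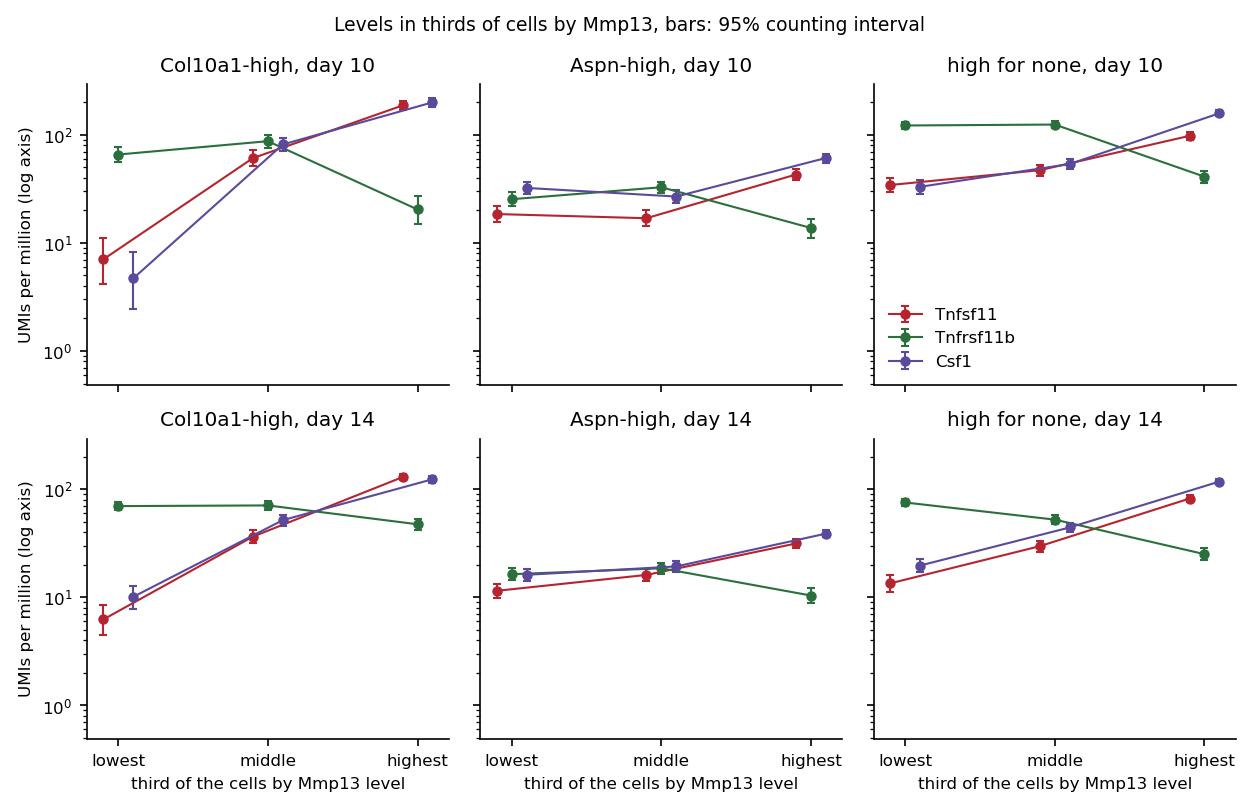
Levels (CPM, log axis) of *Tnfsf11*, *Tnfrsf11b*, and *Csf1* in *Col10a1*-high cells, *Aspn*-high cells, and cells high for none, each divided into 3 equal parts by *Mmp13* level at day 10 and day 14, with exact 95% Poisson intervals. From the lowest to the highest part of the *Col10a1*-high cells *Tnfsf11* went from 7.04 to 187 CPM at day 10 and from 6.25 to 129.6 CPM at day 14, and *Tnfrsf11b* was lowest in the highest part of each group on both days.

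The direction was not particular to *Col10a1*-high cells. The split was repeated in the 5 groups other than *Rgs5*-high cells and in the cells high for none, which gave 12 sets over both days. *Tnfsf11* was higher in the part with the highest *Mmp13* in 12 of 12 sets, and the interval of the ratio to the lowest part excluded 1 in 11. *Csf1* was higher in 12 of 12, with 12 intervals apart from 1, and *Tnfrsf11b* was lower in 12 of 12, with 9 apart. The sets are parts of 2 libraries and are not replicates. In *R3hdml*-high cells the ratio went from 0.136 in the lowest part to 2.15 in the highest at day 10 and from 0.0738 to 4.17 at day 14. In *Aspn*-high cells it went from 0.729 to 3.12 and from 0.702 to 3.03, and in *Cnmd*-high cells from 0.0254 to 0.124 and from 0.0400 to 0.171. In *Ifitm5*-high cells *Tnfsf11* had 0 UMIs in the lowest part at day 10 and 15 UMIs in the highest (18.9 CPM), and at day 14 it had 3 and 11 UMIs, a ratio of 3.51 (0.926 to 19.6).

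Splits by 2 other genes gave other counts. By *Ihh*, the signal of prehypertrophic and early hypertrophic chondrocytes, *Tnfsf11* was higher in the highest part in 6 of 12 sets and lower in 6, *Csf1* was higher in 5 and lower in 7, and *Tnfrsf11b* was lower in 8, with 6 intervals apart from 1. In 8 of these sets the lowest and middle parts both held 0 *Ihh* UMIs, and in *Aspn*-high cells at day 10 the highest part had *Ihh* in 41 of 497 cells. The order there was set by ties, so that these counts cannot be set against those for *Mmp13*. In *Col10a1*-high cells, where the gene was common, the *Tnfsf11* level was 88.4, 82.9, and 79.2 CPM from the lowest to the highest *Ihh* at day 10. At day 14 it was 77.8, 39.4, and 54.3 CPM, while *Tnfrsf11b* was 78.9, 76.8, and 30.2 CPM and the ratio was highest (1.80) in the highest part. In *R3hdml*-high cells at day 10 *Tnfsf11* went from 19.5 to 82.2 CPM and *Csf1* from 12.4 to 65.6 CPM. In *Cnmd*-high cells *Tnfsf11* was 7.95-fold (4.71 to 14.3) and 4.17-fold (2.53 to 7.19) higher in the part with the highest *Ibsp*, a gene of mineralizing matrix. By *Ibsp*, *Tnfrsf11b* was higher in the highest part in 10 of 12 sets, while *Csf1* was lower in 9 and *Tnfsf11* in 7. In *Col10a1*-high cells at day 14 the ratio was 1.20, 1.36, and 0.485 from the lowest to the highest *Ibsp*.

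From day 10 to day 14 the members moved differently between groups. In *Col10a1*-high cells *Tnfsf11* at day 14 was 0.682 (0.617 to 0.754) and *Csf1* 0.653 (0.594 to 0.719) of the day 10 level, while *Tnfrsf11b* was 1.08-fold (0.968 to 1.21), and the ratio changed by a factor of 0.630 (0.541 to 0.733). In *Aspn*-high cells *Tnfsf11* was at 0.766, *Tnfrsf11b* at 0.625, and *Csf1* at 0.625 of day 10, and the ratio changed by 1.23 (1.05 to 1.43), or by 1.17 with an interval that met 1 without the day 10 cell richest in *Tnfrsf11b*. In *Ifitm5*-high cells *Tnfsf11* was 2.57-fold lower (1.35 to 4.91; 22 and 21 UMIs), *Csf1* was at 0.640 (0.455 to 0.906) of day 10, and the ratio changed by 0.475 (0.243 to 0.929). However, 1 cell held 6 of the 22 UMIs of day 10, and without it *Tnfsf11* was 1.89-fold lower (0.921 to 3.7965) and the ratio changed by 0.653 (0.317 to 1.37). In *Rgs5*-high cells *Csf1* was 2.46-fold lower (1.73 to 3.51), but 1.52-fold lower (1.01 to 2.28) without the single day 10 cell of 28 UMIs, and *Il34* was 1.46-fold higher (1.07 to 2.02). *Tnfsf11* there had 2 and 17 UMIs, a ratio of 3.90 (0.925 to 34.8). In *Cnmd*-high cells *Tnfsf11* (1.01-fold) and *Csf1* (1.02-fold) were at the same level within counting error, and *Tnfrsf11b* was at 0.846 (0.795 to 0.899) of day 10. *Il34* was 2.47-fold higher there (1.56 to 3.97) at a level of 0.522 and 1.29 CPM. In *R3hdml*-high cells *Tnfrsf11b* was at 0.688 (0.600 to 0.788) and *Tnfsf11* at 0.816 (0.663 to 1.01) of day 10, and *Csf1* was 1.06-fold (0.836 to 1.34), or 1.37-fold (1.06 to 1.79) without 1 day 10 cell. In cells high for none *Tnfrsf11b* was 1.88-fold lower (1.75 to 2.02), with *Tnfsf11* at 0.697 and *Csf1* at 0.740 of day 10.

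Past 2-fold between the days were 0 of 5 members with at least 20 UMIs in *Aspn*-high cells, 1 of 4 in *Cnmd*-high cells, 0 of 3 in *Col10a1*-high cells, 1 of 3 in *Ifitm5*-high cells, 0 of 3 in *R3hdml*-high cells, and 1 of 2 in *Rgs5*-high cells. Over all genes the corresponding shares were 6.19%, 5.04%, 5.14%, 5.55%, 4.53%, and 6.99%. The 3 calls were *Il34* in *Cnmd*-high cells, *Tnfsf11* in *Ifitm5*-high cells, and *Csf1* in *Rgs5*-high cells, on 21 to 71 UMIs per day. The latter 2 fell under 2-fold without 1 day 10 cell, as given above, and *Il34* stayed past it (2.34 to 2.64-fold) without its top cell of either day. The day 14 library differs from day 10 in depth and in the neutrophil marker level given above, and the part of these in the differences was not tested.

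Shares of cells with a UMI were compared after thinning each cell to 5000 UMIs. *Tnfsf11* was detected in 23.2% (19.2% to 27.7%) of the *Col10a1*-high cells kept at day 10 and in 13.3% (11.3% to 15.6%) at day 14, and in 8.74% and 7.82% of *Aspn*-high cells. Unthinned, the *Col10a1*-high shares were 33.1% and 23.7%. *Tnfrsf11b* was detected in 17.8% and 15.8% of *Cnmd*-high cells and in 20.3% and 20.9% of *Ifitm5*-high cells. *Il34* was detected in 24.6% and 35.4% of *Rgs5*-high cells. *Cnmd*-high cells (median 20508 UMIs) had *Tnfsf11* in 1.52% and *Csf1* in 3.42% at day 14, and *Ifitm5*-high cells (median 15393 UMIs) had *Tnfsf11* in 1.65%. *Aspn*-high cells (median 14189 UMIs) had *Il34* in 1.63%. Cells with *Ptprc* UMIs at day 14 (138 kept, median 9210 UMIs before thinning) had *Tnfsf11* in 2.17%, *Tnfrsf11b* in 4.35%, *Csf1* in 6.52%, and *Il34* in 3.62%. They are no reference for free RNA, since they held 6975 CPM of the *Cnmd* list of markers, 10756 CPM of the *Col10a1* list, and 19.9 CPM of *Tnfsf11*, near the 23.5 CPM of all *Ptprc*-negative cells. Day 10 had 6 such cells. In the *Ptprc*-positive cells of day 7 (median 5045 UMIs), a separate library, *Tnfsf11* was detected in 0.391%, *Tnfrsf11b* in 0.541%, *Csf1* in 2.44%, and *Il34* in 0.0301%. How much free RNA adds to the low shares of days 10 and 14 was therefore not tested.

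The joint detection of the ligand with *Csf1* and with its decoy in single cells differed between groups. Among *Col10a1*-high cells thinned to 5000 UMIs, 46.7% of the 92 cells with *Tnfsf11* also held *Csf1* at day 10, against 19.1% of the cells without *Tnfsf11*. At day 14 the shares were 43.8% of 137 cells and 15.6%. *R3hdml*-high cells had 39.1% against 3.31% at day 10 and 39.0% against 8.85% at day 14. For *Tnfrsf11b* the shares in *Col10a1*-high cells were 10.9% of the cells with *Tnfsf11* and 14.1% of the others at day 10, and 8.03% and 17.5% at day 14. In *Aspn*-high cells 28.6% of the cells with *Tnfsf11* held *Csf1* and 5.56% *Tnfrsf11b* at day 10, beside 15.3% and 8.59% of the cells without it. At day 14 the shares were 21.3% and 2.41%, beside 9.67% and 5.55%. In *Cnmd*-high cells the shares rested on 2 to 4 cells: of 34 cells with *Tnfsf11* at day 10, 5.88% held *Csf1* and 8.82% *Tnfrsf11b*, beside 3.78% and 17.9% of the cells without it, and at day 14 the values were 9.68% and 12.9% of 31 cells, beside 3.33% and 15.9%. In *Ifitm5*-high cells at day 10, 0 of the 7 cells with *Tnfsf11* held *Csf1* and 3 held *Tnfrsf11b*. These shares changed with the depth of thinning. In *Aspn*-high cells at day 14 and 2000 UMIs, *Csf1* was in 5.69% of the cells with *Tnfsf11* beside 4.09% of the others, and *Tnfrsf11b* in 2.44% beside 2.39%. In *R3hdml*-high cells at day 10 and 2000 UMIs, 13.3% of 15 cells with *Tnfsf11* held *Csf1*, beside 4.35% of the others. At 5000 UMIs these shares were 39.1% of 23 cells and 3.31%. For *Tnfrsf11b* the order turned, with 33.3% beside 14.3% at 2000 UMIs and 17.4% beside 23.8% at 5000 UMIs. Cells with a UMI of both ligand and decoy were 2.53% of the *Col10a1*-high cells at day 10 and 1.07% at day 14. These are descriptions of cells within 1 library per day.

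Across the 12 points given by 6 groups and 2 days, which share libraries, the genes most like each member were ranked by Pearson correlation of log2(CPM + 10) among 7612 genes. For *Tnfsf11* they were *Trp53inp1* (r = 0.96), *Vamp8* (0.95), *Ppp3ca* (0.95), *Podnl1* (0.94), and *Ptges* (0.94), the last a prostaglandin E synthase. For *Tnfrsf11b* they were *C130050O18Rik* (0.97), *Slc39a14* (0.95), *Smim14* (0.95), *Pth1r* (0.94), which encodes the receptor for parathyroid hormone and its related protein, and *Tmie* (0.94). *Csf1* was followed most closely by *Prkab1* (0.96), *Sema7a* (0.95), *Ccndbp1* (0.93), *Taf3* (0.92), and *Exoc3l4* (0.92). For *Il34* they were *Ggt5* (1.00), *Vtn* (1.00), *Kcnj8* (1.00), *Notch3* (1.00), and *Esam* (0.99). *Il34* was at 3.1 CPM or less in 10 of the points and high in the 2 *Rgs5*-high ones, so that its values of r rest on those 2 points and name genes high in that group. Between members, r was 0.63 for *Tnfsf11* and *Csf1*, 0.42 for *Tnfsf11* and *Tnfrsf11b*, and -0.86 for *Tnfrsf11b* and *Il34*, the last with the same limit.

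Genes upstream of *Tnfsf11* in stromal cells were read from a list of 13. The counts of this and the following lists stand beside the shares of all genes past 2-fold in the same contrasts, at days 10 and 14 in turn, of 25% and 24.9% for *Aspn*-high, 21.8% and 21.8% for *Cnmd*-high, 28.5% and 28.4% for *Col10a1*-high, 31% and 28.9% for *Ifitm5*-high, 19.1% and 17.5% for *R3hdml*-high, and 43.6% and 38.3% for *Rgs5*-high cells. In *Col10a1*-high cells 4 of 12 with enough UMIs were past 2-fold higher and 2 lower at day 10, and 3 of 13 were higher and 5 lower at day 14. The median log2 difference of the list was 0.13 and -0.13, beside -0.06 and -0.17 over all genes. *Pth1r* was at 1582 CPM (day 10) and 1422 CPM (day 14), and *Runx2*, a master factor of osteoblasts and hypertrophic chondrocytes, at 245 and 212 CPM, both past 2-fold higher. In *Ifitm5*-high cells 3 of 12 were higher and 5 lower at day 10, and 4 of 13 were higher and 5 lower at day 14. The higher ones included *Vdr*, the vitamin D receptor (44.5 and 34.5 CPM), and *Lifr*, a receptor subunit for LIF and oncostatin M (162 and 136 CPM). *Aspn*-high cells had 3 higher and 3 lower at day 10 and 3 higher and 5 lower at day 14, with more *Il11ra1* (120 and 127 CPM) and less *Pth1r* (213 and 190 CPM) than the rest. *Cnmd*-high cells had 0 higher and 3 lower on each day, and *R3hdml*-high cells 0 higher with 1 lower at day 10 and 3 lower at day 14. *Rgs5*-high cells had 3 higher and 6 lower and then 2 higher and 6 lower, with more *Il6st* (163 and 174 CPM) and *Osmr* (83.8 and 76.3 CPM).

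Of 17 other factors known to promote osteoclast formation, *Col10a1*-high cells had 2 of 13 past 2-fold higher and 8 lower at day 10, and 3 of 15 higher and 8 lower at day 14 (median log2 difference -1.23 and -1.32, beside -0.06 and -0.17 over all genes). The higher ones were *Vegfa* (411 and 347 CPM) and *Ptges* (46.7 and 66.0 CPM) on both days and *Ptgs2*, the inducible cyclooxygenase, at day 14 (773 and 503 CPM). The pair *Ptgs2* and *Ptges* makes prostaglandin E2, an inducer of RANKL. *Aspn*-high cells had 5 of 13 higher and 3 lower at day 10 and 5 of 15 higher and 4 lower at day 14. Their higher genes included *Cxcl12*, a chemokine for precursors (96.1 and 130 CPM), *Pthlh* (15.7 and 6.14 CPM), and *Cx3cl1* (8.76 and 7.18 CPM). *Ifitm5*-high cells had 1 of 13 higher and 9 lower at day 10 and 1 of 15 higher and 12 lower at day 14, with *Tnfsf13b* (19.7 and 10.1 CPM) as the higher one and a median log2 difference of -2.17 and -2.59 beside -0.26 and -0.31 over all genes. *Cnmd*-high cells had 2 higher and 7 lower at day 10 and 1 higher and 8 lower at day 14, with *Lif* (19.1 and 14.9 CPM) higher on both days and *Il11* (139 CPM) at day 10. *R3hdml*-high cells had 2 higher and 5 lower and then 3 higher and 6 lower. *Rgs5*-high cells had 4 higher and 6 lower at day 10 and 5 higher and 7 lower at day 14, the higher ones including *Il6* (103 and 22.9 CPM) and *Ccl2* (195 and 82.7 CPM).

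Of 13 genes listed here as factors that restrain osteoclasts, 10 were found by symbol with at least 20 UMIs on each day. The action of the listed genes on osteoclasts was not examined here. *Aspn*-high cells had 4 past 2-fold higher and 1 lower at day 10 and 5 higher and 2 lower at day 14, with a median log2 difference of 0.84 and 0.98 beside 0.26 and 0.24 over all genes. *Sfrp1*, a secreted antagonist of WNT that also binds RANKL, was at 108 and 76.0 CPM, and *Wnt16*, which acts on precursors and raises OPG, at 29.1 and 17.0 CPM. *Ifitm5*-high cells had 4 higher and 4 lower at day 10 and 2 higher and 4 lower at day 14. Of the listed genes, *Bmp3* (54.3 and 87.6 CPM) and *Slit3* (50.8 and 53.6 CPM) were higher there on both days. *Col10a1*-high cells had 1 higher and 4 lower at day 10 and 1 higher and 5 lower at day 14, with *Frzb* (649 and 728 CPM) as the higher one. *Cnmd*-high cells had 1 higher and 5 lower on each day, and the higher one was *Lgr4*, a second receptor for RANKL (56.2 and 50.7 CPM). *R3hdml*-high cells had 0 higher and 4 lower on each day, and *Rgs5*-high cells 2 higher and 7 lower and then 1 higher and 6 lower.

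Of 5 proteases known to shed RANKL or M-CSF, 4 had enough UMIs. In *Aspn*-high cells 3 were past 2-fold higher at day 10 and 1 at day 14 with 0 lower, and in *Cnmd*-high cells 3 and 2 were lower with 0 higher. The median log2 difference was 1.64 and 0.87 in the former, beside 0.26 and 0.24 over all genes, and -2.03 and -0.99 in the latter, beside -0.28 and -0.31. *Col10a1*-high cells had 1 higher and 1 lower at day 10 and 2 lower at day 14. *Mmp14* was at 1287 and 1156 CPM in *Aspn*-high cells and at 131 and 89.7 CPM in *Col10a1*-high cells, past 2-fold higher and lower. *Adam17* was near even, between 22.9 and 46.6 CPM in all 6 groups on both days, and *Adam10* was highest in *Rgs5*-high cells (59.4 and 66.1 CPM). *Sost*, the sclerostin gene of osteocytes, had 1 UMI in *Ifitm5*-high cells at day 10 and 93 at day 14 (14.9 CPM), on the days when *Tnfsf11* in that group was at 8.66 and 3.37 CPM. Without 1 day 10 cell that *Tnfsf11* difference had an interval that included 1, as given above. A link between these genes was not tested. *Ptgs2* was lower at day 14 in *Aspn*-high cells (348 against 81.5 CPM) and *Cnmd*-high cells (595 against 269 CPM). Of 5 further receptors and partners, 4 had enough UMIs. *Aspn*-high cells had 2 past 2-fold higher and 0 lower at day 10 and 2 higher and 1 lower at day 14. *Rgs5*-high cells had 1 higher and 1 lower and then 3 higher and 0 lower, and *R3hdml*-high cells 1 higher and 1 lower and then 0. *Cnmd*-high cells had 3 lower on each day, and *Col10a1*-high cells 0 at day 10 and 3 lower at day 14. In *Ifitm5*-high cells 1 was higher and 1 lower on each day. The higher one was *Ptprz1*, which encodes a receptor that also binds IL-34 (178 and 176 CPM). The lists were chosen with earlier results of these data known, and their counts describe these libraries.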

How the data were processed

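3′-end UMI counts of 3 libraries, deposited by the authors as whole counts per gene and cell, were summed without prior normalization. Cell Ranger is given as version 3.0 with mm10 in the submitters' processing notes, as 3.1.0 in the matrix headers, and as a later version in the methods, and the kit chemistry also differs between the labels and the methods. Which version gave the counts could not be settled here. The limits on cells were those of the study's methods, and cuts used days 10 and 14. Groups, levels (summed UMIs of a gene per 1000000 UMIs of the group, CPM), ratios, and exact Poisson, conditional binomial, and Clopper-Pearson intervals were computed in Python 3.11.15 with NumPy 2.4.6, SciPy 1.17.1, pandas 2.3.3, and scanpy 1.11.5, and figures were drawn with matplotlib 3.10.9. A gene was called at 2-fold among genes with at least 20 UMIs. The computation was tested on simulated data. The text names the 5 members, the 6 markers, the genes of 5 lists, cell type markers, and the 5 genes most like each member with at least 200 UMIs. Members and lists were chosen with earlier results of these data known. Scrublet called 0, 9, and 5 cells as doublets, too few to have worked, so the 5% of cells with the highest score were left out as an added alternative, beside other cuts, limits, weightings, and depths. Sampling of UMIs for thinning used a fixed seed. Positions are those of GENCODE M21, and promoter windows are RefSeq's.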

Additional observations from a re-analysis of the deposited data

Results flagged for a closer look

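The *Tnfsf11* to *Tnfrsf11b* ratio moved in opposite directions between day 10 and day 14 in different cell groups, with intervals that exclude no change. It changed by a factor of 1.23 in *Aspn*-high cells and 1.31 in cells high for none, but by 0.630 in *Col10a1*-high cells and 0.475 in *Ifitm5*-high cells. Without the 1 day 10 cell richest in the gene concerned, the *Ifitm5*-high change was 0.653 (0.317 to 1.37) and that of *Aspn*-high cells 1.17, both with intervals that include 1. *Il34* likewise was 2.47-fold higher at day 14 in *Cnmd*-high cells and 1.46-fold higher in *Rgs5*-high cells, and at 0.677 of its day 10 level in cells high for none, where it was 0.739 (0.508 to 1.08) without 1 day 10 cell. With 1 library per day, these differences between groups were not tested.

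The members were also measured in *Ptprc*-negative cells above 5000 genes, which the comparisons leave out. In 279 such cells at day 7, *Tnfsf11* was at 14.6 CPM, *Tnfrsf11b* at 81.7 CPM, *Csf1* at 22.1 CPM, and *Il34* at 1.49 CPM. In 741 cells at day 10 the levels were 22.5 CPM for *Tnfsf11*, 51.9 CPM for *Tnfrsf11b*, 33.8 CPM for *Csf1*, 1.71 CPM for *Il34*, and 0.186 CPM for *Tnfrsf11a*. In 945 cells at day 14 they were 22.1 CPM for *Tnfsf11*, 36.0 CPM for *Tnfrsf11b*, 27.9 CPM for *Csf1*, 2.22 CPM for *Il34*, and 0.225 CPM for *Tnfrsf11a*. At days 10 and 14 the *Tnfsf11* levels lie near the 22.7 and 23.5 CPM of all *Ptprc*-negative cells within the limits. At day 7 they do not: *Ptprc*-negative cells within the limits had 37.4 CPM of *Tnfsf11* and 164 CPM of *Tnfrsf11b*.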

How the results depend on the processing

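No paired analysis of the days was possible because each day has 1 library. For the same reason no library could be left out of a day. The ratio of *Tnfsf11* to *Tnfrsf11b* kept its side of 1 in *Cnmd*-high, *Ifitm5*-high, *R3hdml*-high, and *Col10a1*-high cells over 11 alternatives on both days, while in *Aspn*-high cells at day 10 it lay between 0.970 and 1.34. With a stricter cut with the top mean divided by 5 it moved beyond counting error in *Aspn*-high cells to 1.34 at day 10 and 1.62 at day 14, and in *Cnmd*-high cells to 0.0499 and 0.0500. With a looser cut it was 0.0916 in *Cnmd*-high and 0.989 in *Col10a1*-high cells at day 14. Among cells high for exactly 1 marker at day 10 it was 1.23 in *Aspn*-high and 0.286 in *R3hdml*-high cells, and the *Csf1* level of *R3hdml*-high cells over the others turned to 0.511 at day 10 and 0.938 at day 14. Without the upper limit on genes it was 0.0770 and 0.0903 in *Cnmd*-high cells at days 10 and 14. With each cell weighted equally it was 1.49 in *Aspn*-high and 0.643 in *R3hdml*-high cells at day 14, and with cells thinned to 5000 UMIs it was 1.45 and 0.771. Members past 2-fold numbered 33 in the contrasts between groups (31 to 36 over the alternatives, members at 0 UMIs not counted) and 3 between days (5 when thinned). Of all genes, 17.5% to 43.6% were past 2-fold in the contrasts between groups and 4.53% to 6.99% in those between days. Apart from *Csf1* in *R3hdml*-high cells, no recomputed value whose interval excluded 1 changed direction over these alternatives. Sizes moved more often than directions. With cells thinned to 5000 UMIs, 25 of 51 folds between groups left their counting intervals. So did 11 of 24 day 14 to day 10 ratios and 20 of 50 levels. The causes were not tested. Leaving out shared barcodes or cells with high doublet scores, both chosen after the data were seen, moved none of the *Tnfsf11* to *Tnfrsf11b* ratios beyond counting error. Leaving out the cell richest in a gene, also chosen then, ended 2 of the 3 calls between days and 4 of those between groups, and left 3 more at 0 UMIs. It also added a lower call for *Tnfsf11* in *Ifitm5*-high cells at day 10 (2.55-fold). *Il34* in *R3hdml*-high cells became lower too (5.25-fold on 1 UMI at day 10, 2.09-fold at day 14). Some values near 1 crossed it in this step. The day 14 to day 10 ratio went from 1.01 to 0.935 for *Tnfsf11* in *Cnmd*-high cells. For *Csf1* in *R3hdml*-high cells it went from 1.06 to 0.994. Few UMIs stood behind *Tnfrsf11a* (0 to 14 in each group), *Il34* in *Col10a1*-high, *Ifitm5*-high, and *R3hdml*-high cells (0 to 10), and *Tnfsf11* and *Tnfrsf11b* in *Rgs5*-high cells (2 to 17).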
